A study of Mus musculus with 29 samples.

Results

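The aorta libraries of this series differ widely in how much fat RNA they hold, and the comparison described here sets the libraries with much of it against those with little. Libraries were chosen by their measured value of Adipoq (GRCm38 chromosome 16, 23146536 to 23158028), which encodes adiponectin, a hormone secreted by fat cells. Within each treatment group of the disease model the libraries were ranked by the value of Adipoq. The top 4 vehicle and the top 5 Scl-Ab libraries were called fat-rich, the bottom 4 and the bottom 5 fat-poor, and the middle vehicle library was left out. This took in 18 of the 19 model libraries and of the 29 in all, 9 fat-rich and 9 fat-poor. All tissue was aortic arch from male C57BL/6 mice aged 14 weeks and fed chow. The 19 model libraries came from mice without apolipoprotein E (ApoE KO) carrying a pump filled with AngII, the pressor hormone angiotensin II, at 15.27 mg/mL and running at 0.11 µL/hr. Over 4 weeks they received either vehicle (9 libraries, numbered 1 to 9) or an antibody against sclerostin, Scl-Ab, at 10 mg/kg weekly under the skin (10 libraries, 10 to 19). Another 10 libraries (20 to 29) were wild type (WT) with vehicle in pump and injections. The deletion and AngII are thus shared by all fat-rich and fat-poor libraries, and WT differs from them in both at once. The treatment protocol counts 9 WT mice for the 10 WT libraries, and n is a number of libraries throughout. P-values measure the spread between libraries.

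White fat cells store triglyceride in a droplet coated with perilipin and release fatty acids from it. Brown fat cells burn fatty acids in many mitochondria and make heat through the uncoupling protein UCP1. The aorta is wrapped in perivascular fat, which in rodents has much of the brown fat character around the thoracic part. The wall itself is made of contractile smooth muscle, elastic fibres and collagen, with an adventitia of fibroblasts outside. Per the labels, the fat around each arch was rubbed away with a swab before RNA was extracted.

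Values are on a per-length FPKM-like scale and are compared as log2(value + 1). By the steps between low values, a value of 1 in a 2 kb gene stood for 31.7 to 43.5 fragments, and 12558 to 13397 genes reached a value of 1. Apoe was 3.32 to 12.5 in the 19 model libraries and 146 to 363 in WT, so no library went against its genotype label. Gene models with copies of mitochondrial sequence (8 in number) took 16.2 to 29.5% of the summed values in fat-rich libraries (median 21.3%). They took 9.87 to 27.4% in fat-poor ones (median 12.7%), the highest being Scl-Ab 17, and their part in the results below was not tested.

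The fat-rich vehicle libraries had Adipoq at 576 (vehicle 1), 320 (vehicle 9), 171 (vehicle 4) and 165 (vehicle 2). The fat-poor ones had 73.9 (vehicle 3), 48.1 (vehicle 7), 38.5 (vehicle 8) and 34.4 (vehicle 5), with vehicle 6, left out, at 97.8. With Scl-Ab the fat-rich values were 465.9 (Scl-Ab 12), 317 (15), 314 (11), 237 (10) and 186 (14), and the fat-poor values 146 (17), 72.9 (18), 71.8 (19), 63.1 (16) and 51.4 (13). The step between the classes was thus wide with vehicle (165 to 73.9) and narrow with Scl-Ab (186 to 146). Scl-Ab 17 is fat-poor by rank within its group while its Adipoq lay near that of fat-rich vehicle 2. The choice fixed these values, so they are a description. In WT, Adipoq ran from 3.85 (WT 20) and 19.4 (WT 21) to 140 (WT 28), with a median of 60.7, so every fat-rich library lay above every WT library.

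Adipoq itself was compared between the 3 groups, which the ranking within groups did not fix. The mean log2 level was 7.22 ± 1.13 (SD, n = 10) with Scl-Ab, 6.80 ± 1.39 (SD, n = 9) with vehicle and 5.57 ± 1.37 (SD, n = 10) in WT. Scl-Ab exceeded WT by 1.65 (two-sided permutation test, p = 0.00544, adjusted over 3 comparisons 0.0163). The vehicle group exceeded WT by 1.23, which missed the threshold (two-sided exact permutation test, p = 0.0661, adjusted 0.0991). Leaving out 1 library at a time gave differences of 0.86 to 1.43. Without vehicle 5 the difference was 1.43, with an adjusted p of 0.0496 in the same exact test. Scl-Ab and vehicle differed by 0.42 (exact permutation p = 0.470, adjusted 0.470), less than the SD of either group. In these whole-tissue samples, fewer cells of a type and less RNA per cell cannot be told apart.

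**Figure D1:**
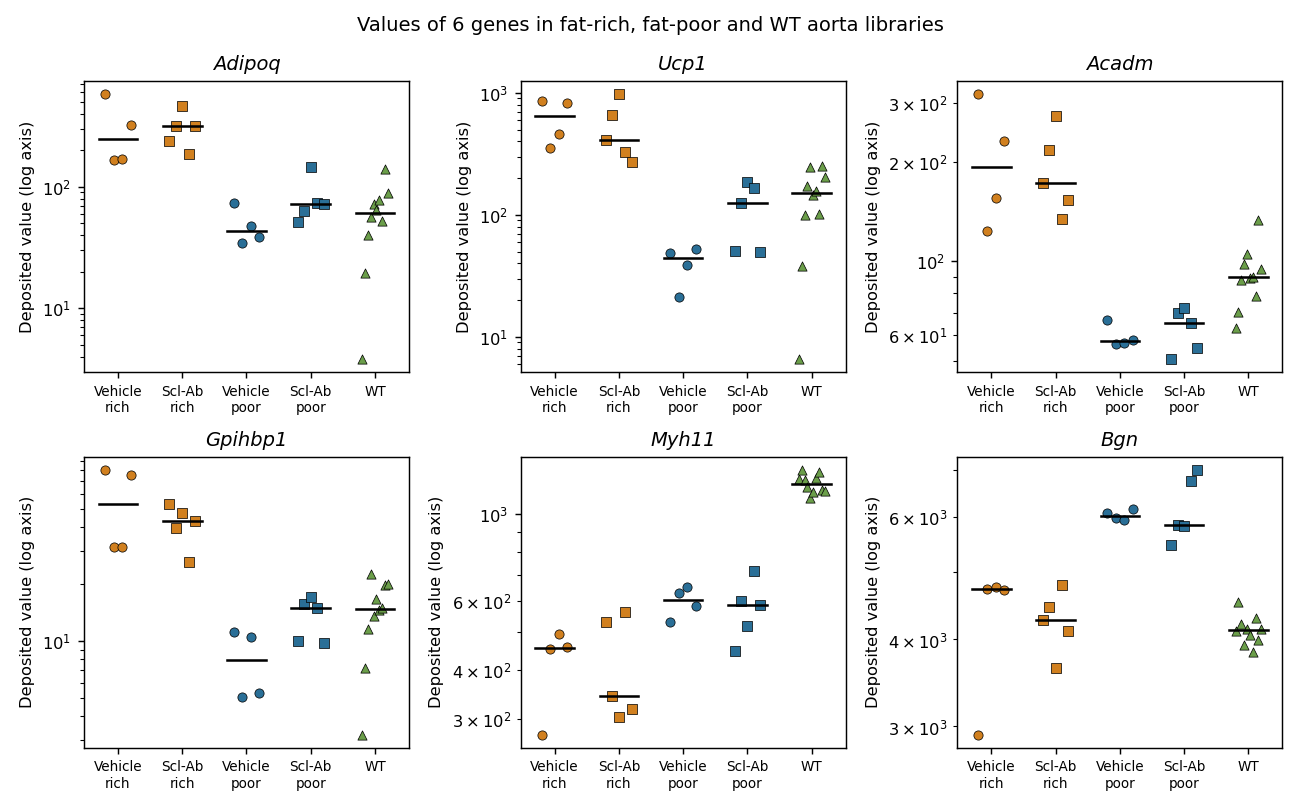
Deposited values (log axis) of Adipoq, Ucp1, Acadm, Gpihbp1, Myh11 and Bgn by class, treatment and in WT; points are libraries (circles vehicle, squares Scl-Ab, triangles WT) and bars medians. The 9 fat-rich libraries lie above the 9 fat-poor ones for Adipoq by choice and also for Ucp1, Acadm and Gpihbp1, below them for Bgn, and overlap with them for Myh11, which was above 1000 in every WT library.

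The label of the classes was checked against other fat cell genes, given without a test because ranking by Adipoq also ranks the libraries by fat. Ranking by Plin1, which encodes the droplet coat protein perilipin 1, gave the same 2 classes, library for library. Plin1 was 50.2 to 155 (median 93.7) in fat-rich and 10.4 to 42.7 (median 17.6) in fat-poor libraries, without overlap. Fabp4, the fatty acid carrier of fat cells, was at 1629 to 4854 (median 2713) against 255 to 1471 (median 521). All 24 tested white fat genes beside Adipoq had the higher mean in fat-rich libraries, with a median log2 difference of 1.83, where the median over all 13509 genes was -0.05. The classes did not overlap for 12 of these 24 genes. Leptin (Lep), the fat hormone that reports stored fat, was among those with overlap, at a low level of 0.259 to 4.19 against 0.0765 to 0.790.

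Genes of fatty acid synthesis followed. Of 17 tested, all had the higher mean in fat-rich libraries (median log2 difference 1.66). Scd1, a desaturase that makes monounsaturated fatty acids, was at 940 to 3118 (median 1370) against 136 to 479 (median 284). Fasn, the fatty acid synthase, was at 82.7 to 365 against 13.3 to 72.4. For both genes the lowest fat-rich library lay above the highest fat-poor one, which held for 11 of the 17 genes.

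Of 21 tested brown fat genes 20 had the higher mean in fat-rich libraries, and the median log2 difference was 2.16. Ucp1 was 856, 824, 457 and 353 in fat-rich vehicle libraries 1, 9, 4 and 2 and 973, 271, 654, 411 and 325 in fat-rich Scl-Ab libraries 12, 15, 11, 10 and 14. In the fat-poor vehicle libraries it was 21.4 to 52.8, and with Scl-Ab 49.7 to 187. No fat-poor library reached the fat-rich ones. Per unit of Adipoq, Ucp1 was 0.853 to 2.68 (median 2.08) in fat-rich and 0.621 to 2.27 (median 0.984) in fat-poor libraries. In WT this ratio was 1.71 to 3.44 (median 2.11), although no WT library held more Adipoq than the highest fat-poor one. The ratio overlapped between the classes, and Scl-Ab 15 had little Ucp1 for its Adipoq (0.853). Ppargc1a, a coactivator that drives mitochondrial genes, was 1.73 to 17.9 against 0.279 to 0.776. The 2 highest values were in vehicle 9 (17.9) and vehicle 1 (17.5), and the next highest was 4.17 in vehicle 2. Dio2, which makes active thyroid hormone in brown fat, was 13.4 to 63.8 against 6.04 to 48.0, with the classes overlapping.

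Genes whose level followed Adipoq most closely over the 19 model libraries, after removal of each treatment mean, are a description with no test, since points share the class of the library. Car3, a carbonic anhydrase abundant in fat cells, led with r = 0.993 (n = 19). Cd1d1, which presents lipid antigens, followed with 0.991, then Gstz1 (0.990), Adhfe1 (0.989), Plin1 (0.989), Slc36a2 (0.988), Fabp4 (0.987), Prkar2b (0.987) and Fcor (0.987). In the 10 WT libraries, which had no part in this choice, the same genes had r between 0.882 (Fcor) and 0.996 (Slc36a2). At the other end were Pofut2, an enzyme that fucosylates proteins (r = -0.96), Spryd3 (-0.95), Ppp1r18 (-0.94), Mical2 (-0.94) and the actin regulator Cfl1 (-0.94). In WT their r was -0.60, -0.10, -0.15, 0.16 and -0.63. Of the 10 genes with the most negative r in the model, 5 had a positive one in WT, the others being Papd7 (0.68), Myo1c (0.64), Wsb2 (0.60) and Rps6ka4 (0.39).

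Over all tested genes, the fat lists included, 4079 of 13509 were called between the classes at an adjusted p under 0.05 (30.2%), 1845 higher (13.7%) and 2234 lower (16.5%), with treatment as a covariate in limma. Without the 62 genes of the fat lists, 4020 of 13447 were called. Because the classes were made from a measured gene, a call says only that a gene varied with Adipoq across these libraries. The 2 directions differed in size: 407 called genes were at least 2-fold higher and 12 at least 2-fold lower, and the median called change was 1.33-fold. The classes did not overlap for 456 higher genes (3.38%) and 119 lower ones (0.881%). Of the calls, 45.2% were higher on the deposited scale, 51.9% after median-of-ratios scaling, 53.2% when genes outside the lists set that scaling, 32.9% at equal sums and 54.9% without the filter on low values. Calls numbered 2187 without vehicle 1, Scl-Ab 12 and Scl-Ab 15, chosen after seeing the data.

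**Figure D2:**
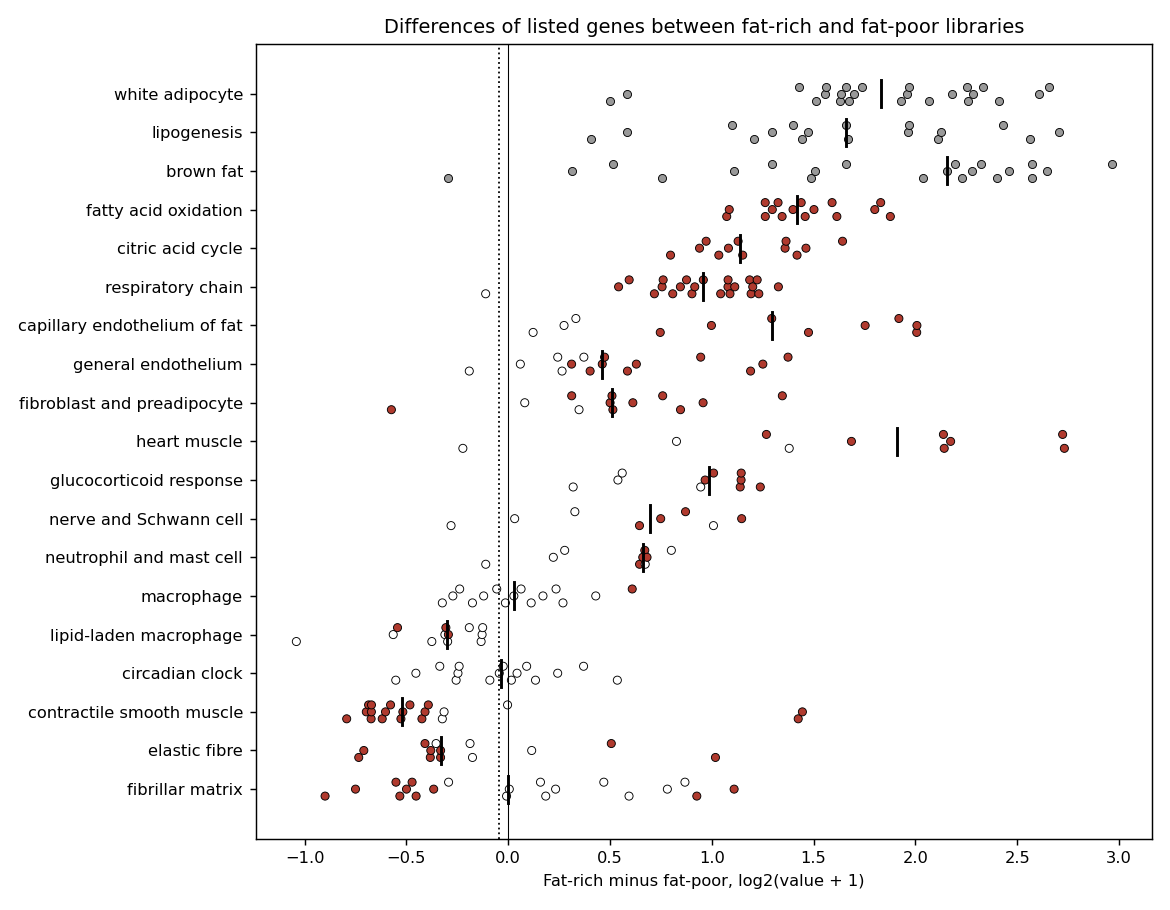
Fat-rich minus fat-poor difference on log2(value + 1) for each tested gene of 19 lists; red points passed limma at an adjusted p under 0.05, white ones did not, grey ones belong to the 3 fat lists and have no test, the black bar is the list median and the dotted line the median over all genes (-0.05). The lists of fatty acid oxidation, the citric acid cycle and the respiratory chain lie to the right of 0 with 1 exception, and most contractile genes lie to the left.

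Mitochondrial fuel genes rose as a block with Adipoq. Fatty acid oxidation, the stepwise cutting of fatty acids in mitochondria, had 16 of 16 genes called higher (13.7% of all genes were), with a median log2 difference of 1.42 and no overlap of the classes for 14. Acadm, the medium-chain dehydrogenase of that pathway, was 123 to 319 (median 172) in fat-rich and 50.8 to 72.2 (median 57.9) in fat-poor libraries. This is 3.06-fold (log2 1.61, SE 0.16, limma adjusted p = 7.49e-06), higher in every fat-rich library. Hadha, part of the trifunctional enzyme of the same pathway, was 42.7 to 95.3 against 26.9 to 35.4 (2.10-fold). These genes work in many tissues, and all 10 WT libraries had Acadm between 63.0 and 133.

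All 12 citric acid cycle and pyruvate dehydrogenase genes were called higher (13.7% of all genes were). The median log2 difference was 1.14, with no overlap for any of the 12. Cs, citrate synthase, was 119 to 231 (median 148) against 68.7 to 82.9 (median 73.8), 2.12-fold (log2 1.08, SE 0.13, limma adjusted p = 1.65e-05). Fat-poor libraries lay in a narrow band for this gene, and fat-rich ones were spread more widely.

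Of 23 nuclear genes of the respiratory chain, which passes electrons to oxygen and makes ATP, 22 were called higher (13.7% of all genes were). The median log2 difference was 0.96, and the classes did not overlap for 20. Uqcrfs1, the iron-sulphur subunit of complex III, was 91.6 to 207 (median 119) against 42.9 to 60.3 (median 48.0), 2.51-fold. Sdha of complex II was 124 to 269 against 68.3 to 84.1. Atp5g1, which encodes 1 form of the ATP synthase c subunit, was the 1 gene not called, at 60.2 to 119 against 70.9 to 98.3 (log2 -0.11, SE 0.11, limma adjusted p = 0.492). In each fit that left out 1 library 22 genes of this list were called higher. A pair of muscle and brown fat isoforms listed with brown fat had larger differences: Cox7a1 was 87.4 to 300 against 10.1 to 67.3 and Cox8b 223 to 705 against 28.3 to 177.

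Endothelial genes were read in 2 lists. Of 11 genes named for the capillaries of fat, 8 were called higher (13.7% of all genes were), with a median log2 difference of 1.29. Gpihbp1, which carries lipoprotein lipase to the capillary surface, was 26.2 to 80.3 (median 43.4) in fat-rich and 5.05 to 17.1 (median 10.5) in fat-poor libraries, 4.02-fold (log2 2.01, SE 0.24, limma adjusted p = 1.55e-05), with no overlap. Rgcc, a cell cycle regulator of such capillaries, was 20.0 to 107 against 6.45 to 14.7 (4.02-fold), also without overlap. Car4, a membrane carbonic anhydrase, was 7.18 to 18.5 against 0.763 to 7.20, the classes touching at fat-poor Scl-Ab 17 (7.20) and fat-rich Scl-Ab 14 (7.18).

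Of 15 genes of endothelium in general, 10 were called higher (13.7% of all genes were), with a median log2 difference of 0.46. Kdr, the main VEGF receptor, was 4.43 to 14.8 (median 8.53) against 1.29 to 4.75 (median 2.96), and Cdh5, the endothelial cadherin, 17.8 to 39.8 against 8.90 to 20.7. Pecam1, a junction protein of all endothelium, was at 48.5 to 108 against 38.2 to 126 (log2 0.24, SE 0.16, limma adjusted p = 0.285), and Vwf was at 4.72 to 17.4 against 5.18 to 24.8 (adjusted p = 0.874 in limma). The classes overlapped widely for these 2. Of 5 tested lymphatic genes 4 were called higher, and Lyve1, a hyaluronan receptor, was 8.74 to 40.1 against 3.96 to 19.1. Without vehicle 1, Scl-Ab 12 and Scl-Ab 15, 7 capillary, 7 general and 0 lymphatic genes were called higher.

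Fibroblast and fat precursor genes were called higher in 9 of 12 and lower in 1 (13.7% and 16.5% of all genes were). Gpx3, a secreted peroxidase, was 276 to 774 (median 483) against 92.1 to 309 (median 204), 2.54-fold (log2 1.35, SE 0.21, limma adjusted p = 0.000167). Pdgfra, the receptor that marks fibroblasts, was 17.5 to 27.7 against 10.6 to 21.4 (1.41-fold). Wisp2, a secreted CCN protein, was the gene called lower, at 92.8 to 241 against 188 to 405. Without vehicle 1, Scl-Ab 12 and Scl-Ab 15, 2 genes of this list were called higher. With the heart muscle score as a further covariate 2 were, and with the glucocorticoid score 4.

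Contractile smooth muscle genes went down where Adipoq was high. Of 20 genes 15 were called lower (16.5% of all genes were) and 2 higher, with a median log2 difference of -0.52. Smtn, a cytoskeletal protein of contractile muscle, was 131 to 331 (median 236) in fat-rich and 302 to 468 (median 376) in fat-poor libraries, 0.627-fold (log2 -0.67, SE 0.13, limma adjusted p = 0.00101). Myh11, the smooth muscle myosin, was 274 to 563 (median 453) against 448 to 716 (median 587). The 3 lowest Myh11 values were in vehicle 1 (274), Scl-Ab 12 (304) and Scl-Ab 15 (317), and the classes overlapped for every gene of the list. Acta2, the smooth muscle actin, was 2255 to 5457 against 3687 to 8554 (0.622-fold). The summed level of the list was 7713 to 16982 in fat-rich, 14132 to 23844 in fat-poor and 27087 to 31563 in WT libraries, which lay above both classes.

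The 2 contractile genes called higher, Pln and Casq2, hold calcium handling proteins that heart muscle also makes. Pln was 3.06 to 63.3 against 1.27 to 30.3, and Casq2 0.952 to 16.1 against 0.361 to 4.56. The 15 calls lower became 4 without vehicle 1, Scl-Ab 12 and Scl-Ab 15 and 10 to 16 when each library was left out in turn. With the heart muscle score as a further covariate 12 were lower, and with the glucocorticoid score 10.

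Because contractile genes share a control element bound by serum response factor, the CArG box, the 250 bases before each start were searched for it on both strands. RefSeq promoter windows were matched for 16 of the 20 genes. Only the exact form was counted, CC and GG around A or T bases alone. Boxes with a substitution or outside this window would be missed, so a promoter without a match may still hold one. The exact form was found in 1 of the 16 (6.25%), Myl9, and in 439 of all 27025 genes with a promoter window (1.62%). Myl9, the regulatory light chain of smooth muscle myosin, was 977 to 2181 (median 1847) in fat-rich and 1711 to 2890 (median 2463) in fat-poor libraries (log2 -0.60, SE 0.16, limma adjusted p = 0.00820). It was also the 1 contractile gene of 20 with a called fall along Adipoq in WT, where 4.26% of all genes were called falling. Without WT 20 and WT 21, which had the least Adipoq, no contractile gene was called in WT. Whether the box has a part in either fall was not tested. The Myl9 stretch is shown because it carries the single match in this list. It lies at chr2:156775263-156775352 on the plus strand of GRCm38.p6 (RefSeq), with the box in capitals 161 bases before the start.
Myl9: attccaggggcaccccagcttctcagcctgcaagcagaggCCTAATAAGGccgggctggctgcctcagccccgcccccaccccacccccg

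Of 13 elastic fibre genes 7 were called lower and 2 higher, and of 20 fibrillar matrix genes 8 lower and 2 higher. Over all genes 16.5% were called lower and 13.7% higher. The shares called higher in these lists (15.4% and 10.0%) were near or below that. The list medians were -0.33 and 0.00 on the log2 scale. Bgn, the proteoglycan biglycan, was 2921 to 4783 (median 4460) in fat-rich and 5475 to 7007 (median 5978) in fat-poor libraries, 0.692-fold (log2 -0.53, SE 0.10, limma adjusted p = 0.000542), and the classes did not overlap. Postn, periostin of injured matrix, was 605 to 1484 against 1159 to 2794 (0.536-fold). Eln, elastin, was 522 to 1713 against 1347 to 3149. The calls lower were 5 elastic and 4 fibrillar without vehicle 1, Scl-Ab 12 and Scl-Ab 15, and 2 and 5 with the heart covariate. No gene of either list was called higher in these 2 fits.

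Higher in fat-rich libraries were Dcn (1051 to 2765 against 364 to 1479, 2.16-fold), Lum (289 to 748 against 121 to 413, 1.90-fold) and Fbln1 (50.6 to 139 against 21.6 to 89.7, 2.02-fold). Each was called over the 18 libraries and missed the threshold in both of those fits, where Dcn was 1.80- and 2.04-fold (limma adjusted p = 0.0615 and 0.0560), Lum 1.54- and 1.87-fold and Fbln1 1.78- and 1.88-fold. The first 2 are small proteoglycans that adventitial fibroblasts make in quantity, and the third is a fibulin. Col1a1, the main fibrillar collagen, was at 397 to 849 against 371 to 1485 (log2 0.01, SE 0.22, limma adjusted p = 0.989). In a list of cartilage and bone genes Chad and Comp were called higher and Acan lower of 14, shares near or below those over all genes. Acan, the cartilage proteoglycan aggrecan, was 5.84 to 17.8 against 18.4 to 26.2, without overlap, and Scx, a tendon transcription factor, 8.45 to 29.8 against 30.9 to 44.7, also without overlap.

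RNA of other cell types moved with the classes too. Of 10 tested heart muscle genes 7 were called higher (13.7% of all genes were), with a median log2 difference of 1.91. Mb, Actc1, Myl7 and Csrp3 were among the 12 largest differences outside the fat lists. Myl7, an atrial myosin light chain, was 95.2, 72.6, 29.4 and 5.80 in fat-rich vehicle libraries 1, 9, 4 and 2 and 0.765, 3.29, 1.755 and 0.382 in fat-poor 3, 7, 8 and 5. With Scl-Ab it was 11.8 (15) to 185 (10) in the fat-rich class and 0.106 (17) to 113 (13) in the fat-poor class. The classes were apart with vehicle and overlapped with Scl-Ab. Fat-rich Scl-Ab 15 had little heart RNA, and 4 of the 5 fat-poor Scl-Ab libraries had more than any fat-poor vehicle library.

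The summed level of the 12 heart genes was 87.1 to 1150 in fat-rich and 37.7 to 543 in fat-poor libraries. With the heart score as a covariate, 2153 genes were called between the classes. All 16 fatty acid oxidation genes, all 12 citric acid cycle genes and 22 respiratory chain genes were called higher in that fit as well, and Atp5g1 was called lower in it. When only the 3 highest and the 3 lowest libraries of each treatment were compared, none of the heart genes was called. Of 3 tested skeletal muscle genes 2 were called higher (13.7% of all genes were). The sum over 11 such genes was low, at 5.21 to 44.8 against 3.64 to 9.41, the highest in Scl-Ab 14.

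**Figure D3:**
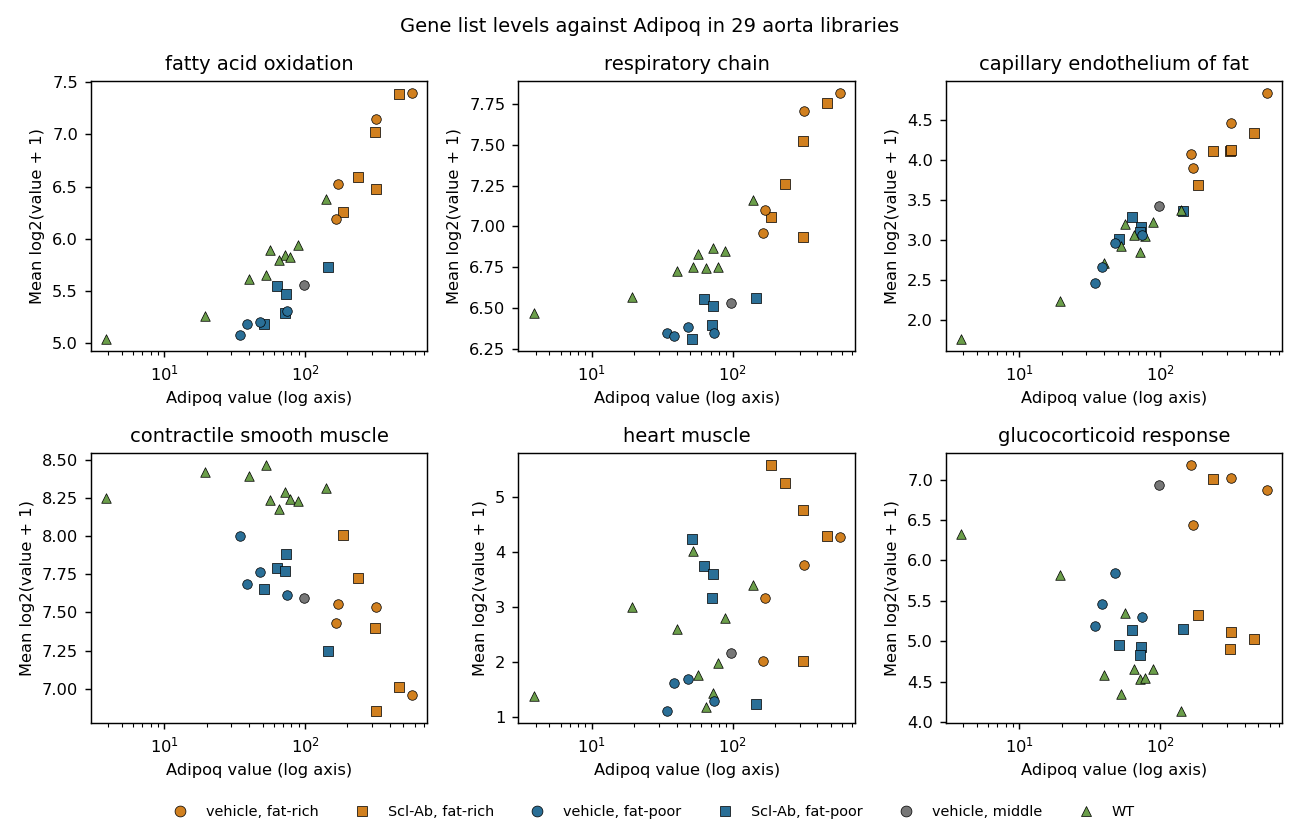
Mean log2(value + 1) of 6 gene lists against Adipoq (log axis) in the 29 libraries, coloured by class with shapes for the treatment. Fatty acid oxidation, respiratory chain and fat capillary levels climb with Adipoq in model and WT libraries, contractile levels are lower at high Adipoq in the model and high in all WT libraries, and heart and glucocorticoid levels vary within each class.

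Genes induced by glucocorticoids, the stress hormones, were called higher in 6 of 10, where 13.7% of all genes were (median log2 difference 0.99). Fkbp5, a chaperone that answers to them, was 83.5, 111, 106 and 129 in fat-rich vehicle libraries 1, 9, 4 and 2 and 32.7, 50.3, 52.4 and 18.6 in fat-poor 3, 7, 8 and 5. With Scl-Ab it was 10.8 to 15.5 in 4 fat-rich libraries, 157 in Scl-Ab 10, and 8.23 to 12.6 in the fat-poor ones. High values were thus in the vehicle libraries and in Scl-Ab 10. Along Adipoq in WT the same list went the other way, with 6 genes called falling and 1 rising. Without WT 20 and WT 21, which had the least Adipoq, none of the list was called in either direction in WT. Their mean log2 levels of this list, 6.33 and 5.82, were the highest in WT. In the class contrast, leaving out 1 library at a time gave 2 to 7 calls, the fewest without vehicle 1 or without vehicle 8, and the heart covariate gave 0.

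Nerve, mast cell and plasma cell genes were low but called in part. Of 8 nerve and Schwann cell genes 4 were called higher (13.7% of all genes were). Among them was Mbp, a myelin protein, at 2.61 to 28.5 against 1.69 to 3.08. Scl-Ab 12 alone was at 28.5, and the next, Scl-Ab 11, at 8.81. Cma1, Tpsb2 and Cpa3, proteases of mast cells, were 1.604-, 1.58- and 1.56-fold higher, Cma1 at 5.92 to 15.2 against 3.16 to 7.66. Jchain, made by plasma cells, was 0.945 to 5.17 against 0.0354 to 3.38. T cell genes were at or near 0, with a sum over 12 genes of 1.95 to 5.56 in all 18 libraries and none tested. The 4 mast cell and neutrophil calls became 2 without vehicle 1, Scl-Ab 12 and Scl-Ab 15 and 0 with the heart covariate.

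Macrophage genes were mostly not called. Of 15, Cd14 was called higher and the other 14 were not called, with a median log2 difference of 0.03. Their sum was 1289 to 2258 in fat-rich and 970 to 3567 in fat-poor libraries. Of 12 genes of lipid-laden macrophages, Cd9, Lgals3 and Cd63 were called lower (16.5% of all genes were). Spp1, which encodes osteopontin, was at 221 to 1200 against 202 to 948 (limma adjusted p = 0.926). Of 17 chemokines and cytokines, Ccl11, Ccl6 and Ccl9 were called higher, a share (17.6%) near that over all genes (13.7%), and none of 16 circadian clock genes was called. In a proliferation list 4 of 11 genes, Ccnb1, Ccna2, Cdk1 and Cdc20, were called lower. The chemokine calls became 1 and the proliferation and lipid-laden calls 0 without vehicle 1, Scl-Ab 12 and Scl-Ab 15, and leaving out single libraries gave 0 to 6 proliferation calls.

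Sclerostin, the target of the antibody, is made by Sost (chromosome 11), a gene of smooth muscle in the aorta as well as of bone cells. Sost was 128 to 410 (median 285.5) in fat-rich, 137 to 647 (median 393) in fat-poor and 509 to 876 (median 628) in WT libraries. The difference missed the threshold (log2 -0.55, SE 0.24, limma adjusted p = 0.0976). Relative to Myh11 it was 0.405 to 0.967 in fat-rich and 0.265 to 0.999 in fat-poor libraries, ranges that overlap almost whole. Of 13 Wnt inhibitors and related receptors, Sfrp5 was called higher and Dkk3 (179 to 284 against 230 to 364) and Wif1 (8.17 to 21.2 against 13.1 to 32.1) lower. Of 8 Wnt target genes, Axin2 was called higher (1.249 to 2.46 against 0.737 to 1.61) and Nkd1 lower (12.04 to 22.7 against 18.1 to 28.96). The shares called in these 2 lists were near or below those over all genes.

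Of the tested hormone genes of fat, 9 are not among the white fat genes. Of these, 5 were called higher and 2 lower (13.7% and 16.5% of all genes were). Adipor2, a receptor for adiponectin, was 47.9 to 100.5 (median 65.2) against 26.9 to 33.3 (median 29.6), 2.25-fold without overlap. Cdh13, the cadherin that binds adiponectin on vessel cells, was lower, at 79.0 to 156 against 142 to 234 (0.644-fold). Of 5 tested renin-angiotensin genes 1 was called higher (13.7% of all genes were) and 4 were not called. The 1 called was Agtr1a, the receptor for AngII, at 1.69 to 5.37 against 0.657 to 1.90 (1.70-fold).

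The largest other differences were in fat and muscle genes. Prkar2b, a regulatory subunit of protein kinase A, was 47.6 to 136 against 6.34 to 26.1 (6.00-fold), Ces1d, a lipase of fat and liver, 53.3 to 226 against 9.10 to 42.7 (5.91-fold), and Mrap, the partner of the corticotropin receptor, 27.6 to 159 against 6.65 to 27.4 (5.11-fold). All 3 were without overlap. Among the genes lower in fat-rich libraries, Igfbp2, an IGF carrier, was 30.8 to 553 against 381 to 813 (0.383-fold) and Rrad, a small GTPase of muscle, 12.3 to 56.0 against 38.0 to 69.5 (0.412-fold). Tgfb2, a TGF-beta ligand, was 11.3 to 24.002 against 23.3 to 63.1, so the classes met at their edges only. Of genes often used as references, Actb was 643 to 1083 against 1015 to 1483 (0.692-fold, called) and Gapdh 225 to 361 against 222 to 418 (limma adjusted p = 0.887).

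The class contrast was also fitted within each treatment. With vehicle 1900 genes were called (14.1%) and with Scl-Ab 2391 (17.7%). The difference between them was called for none (0 of 13509 in limma, 1141 at an unadjusted p under 0.05, and 1 called without the filter on low values). Median log2 differences with vehicle and with Scl-Ab were 1.61 and 1.29 for fatty acid oxidation, 1.11 and 0.90 for the respiratory chain, -0.55 and -0.44 for contractile genes and 1.59 and 0.54 for glucocorticoid genes. Ucp1 differed by 3.89 with vehicle and 2.23 with Scl-Ab. The count with vehicle was 833 without vehicle 1, 1260 without vehicle 5, 1211 without vehicle 8 and 1121 without vehicle 9. With Scl-Ab it was 1437 without Scl-Ab 12, 1508 without Scl-Ab 18 and 1536 without Scl-Ab 11.

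The WT libraries were not used by the ranking, and in them each gene was fitted against log2(Adipoq + 1). The slope was called for 1425 of 13509 genes (10.5%), 850 rising (6.29%) and 575 falling (4.26%). Of the genes called between fat-rich and fat-poor, 659 were called in the same direction in WT, 16.2% of the class calls and 46.2% of the WT calls, and 121 in the opposite direction. Rising with Adipoq in WT were all 16 fatty acid oxidation genes, 15 of 23 respiratory chain genes, 11 of 12 citric acid cycle genes and 9 of 11 capillary genes. Of the 20 contractile genes 1 fell (Myl9), and no heart muscle gene was called. Cpt2, which readies fatty acids for oxidation, had a slope of 0.23 (limma adjusted p = 0.0109), and Gpihbp1 one of 0.51 (adjusted p = 0.00031 in limma).

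The number of WT calls depended on the libraries at both ends of the Adipoq range. Without WT 20 and WT 21, 49 genes were called (0.363%), 48 of them rising (0.355%), among them 11 white fat and 5 fatty acid oxidation genes and no respiratory chain gene. Without WT 20 alone 588 were called, without WT 21 882 and without WT 28 835. The slope was compared with that over the 19 model libraries, and 2582 genes differed (19.1%), but 217 did without WT 20, and WT covered Adipoq from 3.85 to 140 and the model from 34.4 to 576. Slopes for Acadm were 0.19 in WT and 0.69 in the model, for Myh11 -0.03 and -0.26, and for Pdk4, a kinase that shuts off pyruvate oxidation, 0.05 and 0.96.

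The comparison of Scl-Ab with vehicle was read with and without Adipoq as a covariate, since fat content varied within both groups. Clock and glucocorticoid genes differed between these groups too, as given below, and their part in the other calls was not tested. With the covariate 1223 genes were called (9.05%), 520 higher (3.85%) and 703 lower (5.2%) with Scl-Ab. Without it 309 were (2.29%), 100 higher (0.74%) and 209 lower (1.55%). The count with the covariate was 546 without the filter on low values, and 687 without vehicle 2, 773 without vehicle 1, 785 without Scl-Ab 18 and 800 without vehicle 6. Within the fat-rich class 0 genes and within the fat-poor class 115 (0.851%) were called between treatments.

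At the same Adipoq, 5 of 15 general endothelial and 3 of 11 capillary genes were called lower with Scl-Ab and none higher (5.2% of all genes were lower). The 5 were Pecam1, Vwf, Nos3, Esam and Cldn5, against Pecam1 alone without the covariate. Nos3, which makes nitric oxide in endothelium, differed by -0.67 (SE 0.14, limma adjusted p = 0.00930) with and -0.60 (adjusted p = 0.0611 in limma) without it, and Esam, a junction protein, by -0.48 and -0.43. The 3 capillary genes were Rgcc (-0.65), Mfsd2a (-1.56) and Fabp5 (-0.70), and none was called without the covariate. For Rgcc, which follows Adipoq closely, the estimate without it was -0.28.

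Of the fat lists, 1 of 24 white fat, 2 of 17 fatty acid synthesis and 2 of 21 brown fat genes were called lower with Scl-Ab in the fit with the covariate (5.2% of all genes were). None was called higher in it (3.85% of all genes were), and none was called in the fit without the covariate. Pdk4 differed by -1.16 (SE 0.22, limma adjusted p = 0.00552) with Adipoq in the model and by -0.75 (adjusted p = 0.488 in limma) without. Pck1, an enzyme of glycerol synthesis in fat cells, differed by -0.61 and -0.13, Lpin1, a phosphatidate phosphatase, by -0.62 and -0.35, Ppargc1a by -0.86 and -0.53, and Elovl5, an elongase, by -0.34 and -0.23, each called with the covariate and not without. No gene of fatty acid oxidation, the citric acid cycle or the respiratory chain was called between treatments in either fit.

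Glucocorticoid genes were called lower with Scl-Ab in 5 of 10 with the covariate and 4 of 10 without, Fkbp5 by -2.17 with and -2.0005 without. Clock genes were called in both directions, 7 higher and 4 lower of 16 with it and 6 and 4 without. Over all genes 3.85% were called higher and 5.2% lower with the covariate, and 0.74% and 1.55% without it. Of 14 cartilage and bone genes 2 were called higher and 1 lower with the covariate. Cytl1, a secreted protein of cartilage, was the lower one (-0.72 with and -0.74 without it, called in both). Sox9 and Runx2, transcription factors of cartilage and bone, were 0.72 and 0.31 higher with the covariate, and 0.65 and 0.30 without, where Runx2 missed the threshold (limma adjusted p = 0.0689). Sost was not called in either fit (log2 -0.38 with the covariate, limma adjusted p = 0.210, and -0.52 without, adjusted p = 0.275).

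**Figure D4:**
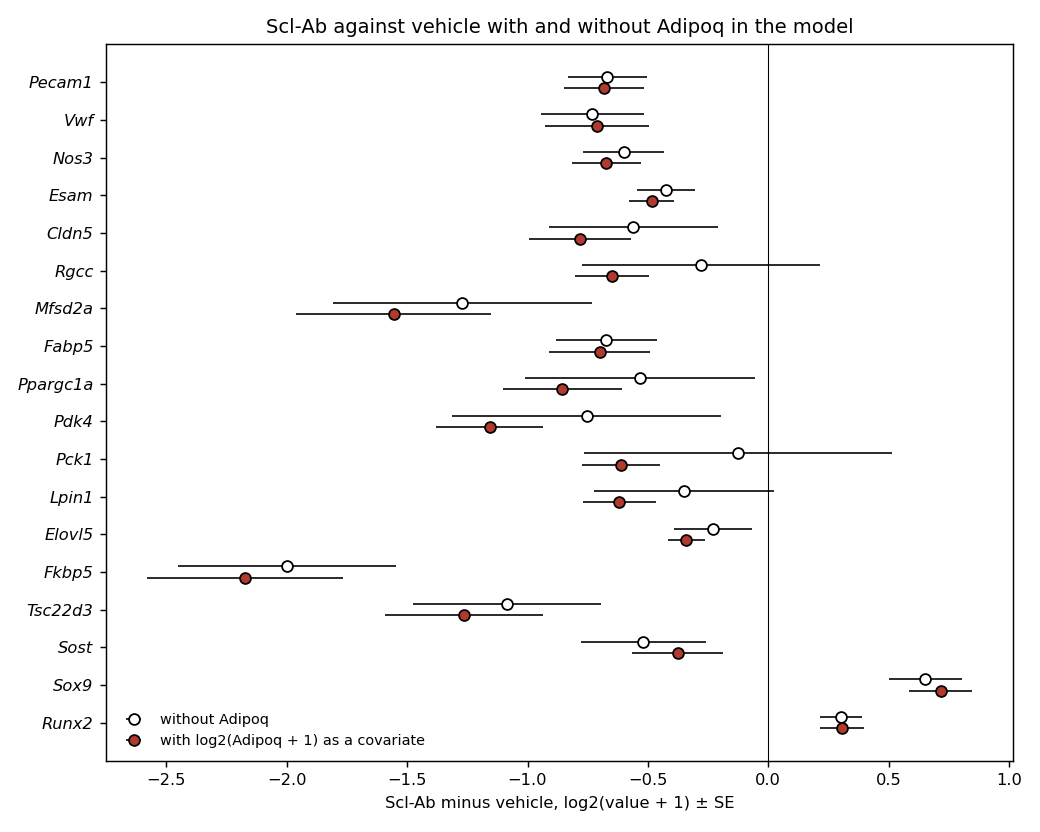
Scl-Ab minus vehicle on log2(value + 1) with its SE for 18 genes, fitted without Adipoq (white) and with log2(Adipoq + 1) as a covariate (red). Estimates with the covariate are further below 0 for Rgcc, Pck1 and Pdk4, and the SE is smaller for genes that vary with fat.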

How the data were processed

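RNA sequencing values of 29 aortic arch libraries were read from the deposited files, 1 value per gene and library. The values are FPKM-like, that is scaled by gene length, and per the file headers the authors call the unit FPKQ without defining it. Genome build GRCm38 and DESeq2 1.10.1 are named in the submitters' processing notes with no role. For aligner and annotation, the sources used here give no name. No counts were at hand, so no count model was used. The log2(value + 1) levels were fitted in R 4.3.3 by limma 3.58.1, with robust moderated variances along the mean trend. The fit took in each gene that reached a value of 1 in 9 or more libraries (13509, Adipoq left out), with Benjamini-Hochberg adjustment over all of them and calls at an adjusted p under 0.05. For genes of low level the added 1 makes changes look smaller than they were. The class contrast had treatment as a covariate, and 1 sample entered no class. Permutation tests were exact, or used 100000 resamples for 10 libraries against 10. The fit was tested on simulated data. Alternatives changed the pseudocount, the filter, the scaling, the covariates, the test and the libraries.

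The members and the gene lists were chosen with earlier results of these data known. Named genes are Adipoq, Apoe and Sost, the 12 largest differences each way outside the fat lists with a mean of at least 5, the 3 genes of each list with the smallest p (the 6 highest for the fat lists), the 10 most and the 10 least like Adipoq, and the 6 clearest WT slopes. Not every one is described, and a few genes the rule takes in are not reported here. Other genes are named as textbook members of a list or as exceptions, and were chosen after their values were seen. Coordinates are from GENCODE M21 and the promoter window from RefSeq.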

Additional observations from a re-analysis of the deposited data

Results flagged for a closer look

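Mean log2 levels of the gene lists were screened for a library far from the others of its group. Of 111 sets of libraries 12 held such a library, and chance alone gives about 1 in 20. With vehicle these were vehicle 6 for B and plasma cell genes (highest, 1.89), vehicle 5 for erythrocyte genes (highest, 6.27) and for proliferation (highest, 2.72), and vehicle 9 for nerve genes (highest, 1.92). Vehicle 4 was lowest for Wnt inhibitors (4.04) and vehicle 1 highest for renin-angiotensin genes (2.06). With Scl-Ab they were Scl-Ab 14 for skeletal muscle (highest, 1.098), Scl-Ab 12 for nerve genes (highest, 2.33), Scl-Ab 17 for Wnt inhibitors (lowest, 3.52), Scl-Ab 10 for glucocorticoid response (highest, 7.01) and Scl-Ab 13 for proliferation (highest, 3.31). WT 20, with the least Adipoq, was lowest for neutrophil and mast cell genes (0.711). The slope along Adipoq differed between the model and WT for 2582 genes by a test of the difference in limma, and for 217 without WT 20.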

How the results depend on the processing

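The class contrast (4079 calls) gave 3338 to 4722 calls when each library was left out in turn, 2153 with the heart muscle score and 2330 with the glucocorticoid score as a covariate, and 2187 without vehicle 1, Scl-Ab 12 and Scl-Ab 15. These 3 alternatives were chosen after seeing the data, and the cause was not tested. Other scalings, filters, pseudocounts and tests kept it within 1.5 times. Leave-one-out ranges were 833 to 2567 with vehicle, 1437 to 3011 with Scl-Ab, 588 to 1767 for the WT slope (49 without WT 20 and WT 21), 217 to 3292 for the difference of slopes and 687 to 1428 for Scl-Ab against vehicle. That last count was 309 without the Adipoq covariate and 546 without the filter, which tests more genes. The interaction stayed at 0 except 1 call without the filter. For Adipoq itself the ranges were 0.214 to 0.717 for Scl-Ab minus vehicle, 1.28 to 1.82 for Scl-Ab minus WT and 0.861 to 1.43 for vehicle minus WT, the last passing without vehicle 5 (1.43). Of 156 named genes 136 kept their side of the threshold in every leave-one-out fit, or their sign for genes of the fat lists. Among called genes and genes of the fat lists, 1 reversed in sign with the glucocorticoid score, Fkbp5 (-0.015), which is part of that score. Sign changes of genes that were not called were not counted. The groups share no replicate numbers, but the 4-digit codes in the titles end in the same 2 digits for 8 vehicle and Scl-Ab libraries each, and the labels do not say what the codes mark. Same-ended libraries deviated together (r over 0.1 across genes) in 2 of 8 pairs, and in 1 of 8 after the fit on Adipoq, so the endings were not taken to pair them. With the ending as a replicate block, chosen after seeing the data, 121 genes were called between Scl-Ab and vehicle over these libraries, against 1031 without the block. Total read numbers are not known.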
